A study of Macaca mulatta with 449 samples.

Results

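The OTX, engrailed, GBX2 and IRX genes encode homeodomain transcription factors that divide the embryonic brain into territories, and they were followed here by symbol through an adult rhesus macaque brain atlas. Of the 10 members sought, 8 had a row among the 30807 genes of the count table: OTX1 (ENSMMUG00000016676), OTX2 (ENSMMUG00000038006), GBX2 (ENSMMUG00000005911), IRX1 (ENSMMUG00000002613), IRX2 (ENSMMUG00000005802), IRX3 (ENSMMUG00000001389), IRX4 (ENSMMUG00000004220) and IRX5 (ENSMMUG00000017440). The engrailed genes EN1 and EN2 were not analysed here. The members were taken by gene family and not by a threshold on a measured value, although earlier results of these data were known.

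The libraries used here are 408 of ribosomal RNA-depleted total RNA, 1 from each of 51 dissected sub-regions in 8 healthy rhesus macaques (Macaca mulatta) without any stated treatment or engineered allele. The study also sequenced the midbrain tissue that remained around the substantia nigra and ventral tegmental area, which was not analysed here. Rhesus 2, 3, 7 and 8 were male and Rhesus 4, 6, 10 and 11 were female. Rhesus 4, 7, 8 and 10 were young (3.2, 4, 3.8 and 5 years old), and Rhesus 2, 3, 6 and 11 were mid-aged (10, 10, 10 and 9.8 years old). The animals came from a single source and lived outdoors in groups, and no tissue was pooled between animals. The sub-regions were also joined into 16 region groups within each animal: the cortex was made of 31 cortical sub-regions, the hippocampus of the dentate gyrus (DG), CA1 and CA3, the striatum of the putamen (PUT), accumbens nucleus (ACb) and caudate nucleus (CN), and the cerebellum of the vermis (CBV) and cerebellar cortex (CBC), while every other sub-region stood alone.

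During development OTX genes are expressed in the forebrain and midbrain and GBX2 in the anterior hindbrain, and the isthmic organizer forms at the border between them, where the secreted signals FGF8 and WNT1 and the engrailed and PAX genes act. GBX2 has a second, later role in thalamic neurons, OTX1 in deep-layer cortical neurons, and OTX2 in the choroid plexus, in midbrain dopamine neurons and in cerebellar granule cell precursors. The IRX genes, homologues of the Drosophila iroquois genes, lie in clusters and take part in subdividing the diencephalon, midbrain and hindbrain; in the reference gene table IRX4, IRX2 and IRX1 share chromosome 6 and IRX3 and IRX5 share chromosome 20.

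The libraries held 7784678 to 31083490 counts assigned to genes (median 10698602). Levels are given as CPM, counts scaled to the same library size, and compared only within a gene, and because the tissue was bulk, fewer cells of a type and less RNA per cell cannot be told apart. The defining genes of the labelled tissues were present: median levels were 276 CPM for TCF7L2 in the thalamus, 41373 CPM for PRL in the pituitary, 922 and 980 CPM for GABRA6 in the cerebellar cortex and vermis, and 1446 CPM for TH in the substantia nigra. In 4 libraries the markers went against the label or stood far from those of the other animals. The hypothalamus of Rhesus 6 held 473 CPM of the cortical glutamate transporter gene SLC17A7, against 0.950 to 5.09 CPM in the others. The medulla of Rhesus 6 held 2.75 CPM of SLC17A7, against 50.3 to 140 CPM, and a summed level of meningeal and fibroblast markers of 625 CPM, against 72.0 to 123 CPM. In the ventral tegmental area, TH was lowest in Rhesus 2 (14.9 CPM) and Rhesus 11 (33.5 CPM), against 70.5 to 336 CPM elsewhere. Contrasts of members between named regions that use these tissues are given with and without those 4 libraries. Comparisons of neighbouring groups in the order of a member's levels, and the contrasts of the other gene lists, are given with all libraries.

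The members fell into contrasting maps. OTX1 covered the forebrain and ventral midbrain: it had at least 1 count in 370 of the 408 libraries, and its median exceeded 1 CPM in 44 of 51 sub-regions, all 31 cortical ones among them. The remaining members were low in the cortex, where none exceeded a median of 1 CPM in any sub-region and only IRX3 had counts in most libraries. Elsewhere OTX2 passed that level in 14 sub-regions, GBX2 in 2, IRX1 and IRX2 in 10 each, IRX3 in 15, IRX4 in 1 and IRX5 in 9.

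**Figure D1:**
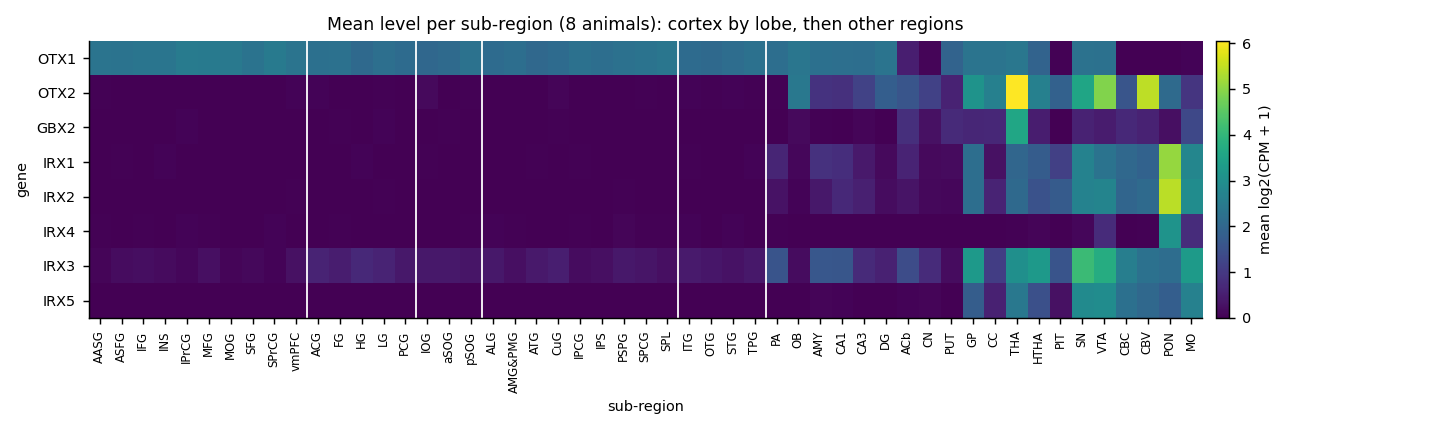
Mean log2(CPM + 1) over 8 animals of the 8 members (vertical axis) in 51 sub-regions (horizontal axis); white lines separate the cortical lobes, in the order frontal, limbic, occipital, parietal and temporal, and then the cortex from the other sub-regions. OTX1 is present across the cortex and falls away in ACb, CN, PIT, CBC, CBV, PON and MO, while the remaining members are found mainly below the cortex.

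All 8 members differed across the region groups (edgeR quasi-likelihood F test, adjusted p of at most 1.14e-39), as did 99.7% of the 16829 genes tested, so this says little about them in particular. In single contrasts, a gene was called at an adjusted p (Benjamini-Hochberg over all genes tested) under 0.05 with a log2 fold change beyond 1 in size. By this rule 2 of 8 members were called between the substantia nigra and the ventral tegmental area (background 5.91% of genes), 6 between these midbrain regions and the pons and medulla (6.86%), 7 between the pons and medulla (11.7%), and 4 between the cerebellum and the pons and medulla (34%). Further forward, 3 were called between the thalamus and hypothalamus (14.2%), 6 between the thalamus and cortex (19.7%), and 4 between the pituitary and hypothalamus (37.7%). These contrasts share groups and come from the same fit. IRX4 exceeded a median of 1 CPM in only 1 sub-region and GBX2 in only 2. Their passing of the low-count filter thus rested largely on the groups where they were highest. The shares of members called in contrasts of those groups are partly set by the filter.

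**Figure D2:**
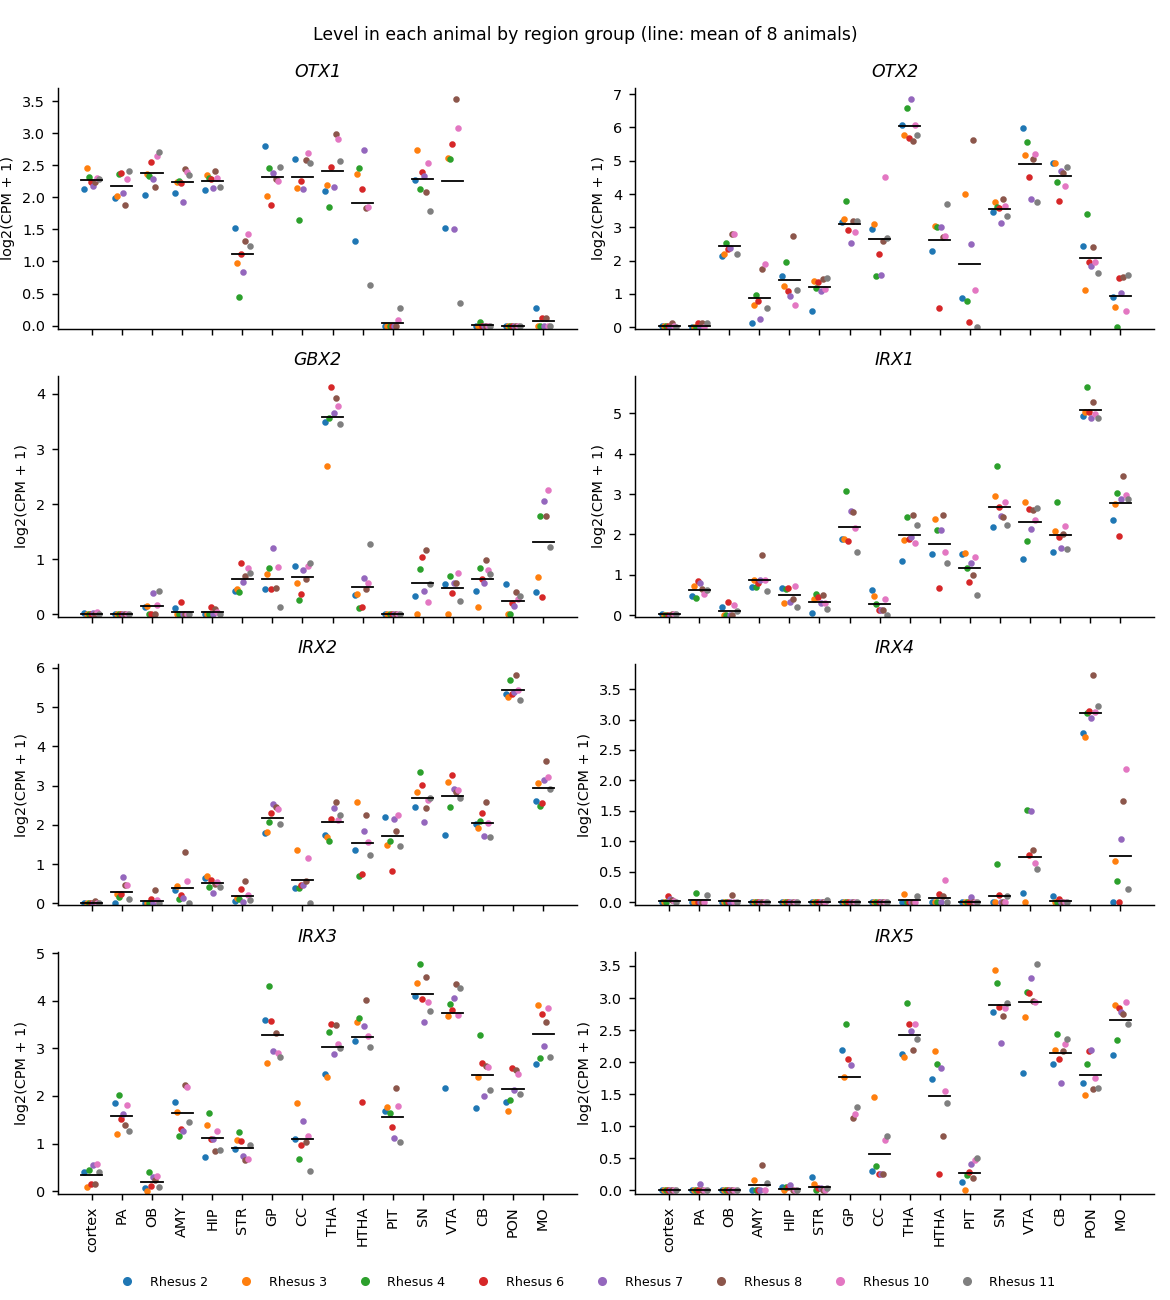
Level of each member, log2(CPM + 1), in each of 8 animals (coloured points) by region group, with the mean as a line; groups of several sub-regions are averaged within an animal. OTX2 and GBX2 are highest in THA and IRX1, IRX2 and IRX4 in PON, IRX3 and IRX5 are spread over the ventral midbrain, medulla, diencephalon, globus pallidus and cerebellum, and OTX1 is flat outside STR, PIT, CB, PON and MO.

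OTX1, known for the forebrain and for deep-layer cortical neurons, had a similar level through most of the forebrain and ventral midbrain. Neighbouring groups in the order of levels are said here to differ at an adjusted p under 0.05, whatever the fold. The order was set by the same levels, so neighbours are close by construction. A run of groups without a step thus does not show that its first and last groups are alike. From the ventral tegmental area (4.80 ± 3.40 CPM; SD, n = 8) down through the thalamus, olfactory bulb, corpus callosum, globus pallidus, substantia nigra, cortex (3.83 ± 0.335 CPM), hippocampus, amygdala and entorhinal and perirhinal cortex (PA) to the hypothalamus (3.11 ± 1.66 CPM), no group differed from the next in the order. Of 15 neighbouring pairs only 2 differed: the hypothalamus exceeded the striatum (log2 fold change 1.48 ± 0.28 SE, adjusted p = 2.98e-06) and the striatum exceeded the medulla (4.58 ± 0.56, adjusted p = 5.08e-12). The striatum here joins 3 parts, and its putamen by itself (3.12 ± 1.54 CPM) was at the hypothalamic level. Behind the midbrain the gene all but vanished.

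OTX1 had no count in any pontine library. In the medulla it had counts in Rhesus 2 (0.213 CPM), Rhesus 6 (0.0809 CPM) and Rhesus 8 (0.0871 CPM) and none in the others. Over both cerebellar sub-regions together a single count was found, in the cerebellar cortex of Rhesus 4. In the substantia nigra the lowest, median and highest libraries were at 2.44, 3.92 and 5.65 CPM, so the groups on either side of the midbrain-hindbrain border did not overlap. With 344 counts in the substantia nigra and none in the pons, the level was at least 105-fold higher in the former (floor of 3 counts over the pontine libraries). Both ventral midbrain regions together held 748 counts against 4 in the pons and medulla, a ratio of 188, and all 8 animals were higher in the midbrain (edgeR, adjusted p = 5.96e-32, and 2.92e-35 without the 4 libraries).

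The ventral tegmental area held the widest spread of OTX1, from 0.272 CPM in Rhesus 11 to 10.6 CPM in Rhesus 8, and the low libraries were Rhesus 11, Rhesus 7 (1.84 CPM) and Rhesus 2 (1.86 CPM). The same 3 libraries had the lowest TH of that region (33.5, 70.5 and 14.9 CPM). The part of dissection in this spread was not tested. Between the substantia nigra and ventral tegmental area OTX1 was not called (log2 fold change -0.24 ± 0.27, adjusted p = 0.551), with 4 animals higher in each. Without the 4 libraries the difference was -0.58 ± 0.25 (adjusted p = 0.0719).

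Within the striatum OTX1 separated its parts. In the putamen it was at 0.650, 2.94 and 5.47 CPM (lowest, median and highest), in the accumbens nucleus at 0.1, 0.418 and 1.42 CPM, and in the caudate nucleus at 0, 0.0425 and 0.183 CPM. The caudate and putamen did not overlap, and the order putamen, accumbens, caudate held in each of the 8 animals. All 3 members that passed the low-count filter here, OTX1, OTX2 and IRX3, differed over the striatal sub-regions (background 57% of 14827 genes). Passing that filter rested largely on the part where a member was highest, the putamen for OTX1 and the accumbens for IRX3. The share of members that differed is thus partly set by the filter and says little about them. For OTX1 the caudate lay below the putamen by 5.48 ± 0.53 on the log2 scale (edgeR, adjusted p = 4.94e-07), with 5 counts in all 8 caudate libraries against 231 in the putamen, and the accumbens lay below the putamen (-2.66 ± 0.38, adjusted p = 1.10e-05) and above the caudate (2.82 ± 0.70, adjusted p = 0.00462). In pairwise tests 2 of 3 members were called between the caudate and putamen (background 4.82%), 3 of 3 between the accumbens and putamen (8.75%) and 1 of 3 between the accumbens and caudate (3.96%). These shares have the same limit from the filter. Without Rhesus 11 OTX1 no longer passed the low-count filter in the striatum and was not tested there. PPP1R1B, a marker of striatal projection neurons, was at 1730 to 2864 CPM in the caudate and 2245 to 3157 CPM in the putamen.

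OTX1 was found in every cortical library (31 sub-regions in 8 animals), at 1.63 to 7.20 CPM. It was the single member that passed the low-count filter over the 31 cortical sub-regions, and it differed among them (adjusted p = 7.33e-05, background 75% of 15981 genes). Sub-region means ran from 3.11 CPM in the inferior occipital gyrus (IOG) to 4.91 CPM in the inferior precentral gyrus (IPrCG), a narrow range. By lobe the frontal cortex had the highest level (3.58, 4.25 and 5.70 CPM for the lowest, median and highest animal) and the occipital cortex a lower one (2.86, 3.49 and 4.12 CPM), with overlapping ranges. The frontal lobe exceeded the mean of the others by 0.27 ± 0.05 on the log2 scale (adjusted p = 7.08e-05), which is under the fold required for a call.

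OTX2, a regulator of forebrain and midbrain formation that stays active in the adult choroid plexus, had its highest level in the thalamus: 47.3 CPM in the lowest, 59.9 in the median and 115 in the highest animal (68.4 ± 24.1 CPM; SD, n = 8). Among the region groups the ventral tegmental area came next (12.7, 33.8 and 62.7 CPM), with ranges that overlapped the thalamus but a lower level by the test (thalamus higher by 1.16 ± 0.41, adjusted p = 0.0135). The vermis by itself (43.9 ± 11.3 CPM) had a higher mean than the ventral tegmental area (32.6 ± 16.9 CPM), a difference that was not tested. With its parts joined, the cerebellum (23.1 ± 5.92 CPM) did not differ from the ventral tegmental area, and it exceeded the substantia nigra (10.8 ± 1.83 CPM; log2 fold change 1.07 ± 0.42, adjusted p = 0.0166). Below these the levels declined without a step between neighbours until the amygdala (1.02 ± 0.984 CPM), which exceeded the entorhinal and perirhinal cortex, where 5 of 8 libraries had no count. In the cortex 212 libraries, from 31 sub-regions of 8 animals, had none.

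All 8 animals had more OTX2 in the thalamus than in the hypothalamus (0.494, 6.33 and 11.9 CPM), and these ranges did not overlap. The difference was 3.54 ± 0.46 on the log2 scale, or 11.6-fold (adjusted p = 7.59e-11), and 3.41 ± 0.46 without the 4 libraries that stood apart, among which the hypothalamus of Rhesus 6 held the lowest OTX2 of its region. Against the cortex the thalamus was higher by 11.58 ± 0.65 (adjusted p = 5.54e-32). The summed level of 9 choroid plexus markers in the thalamus ran from 20.7 CPM in Rhesus 4, which had 94.9 CPM of OTX2, to 306 CPM in Rhesus 3, which had 53.6 CPM of OTX2, and it was 68.7 CPM in Rhesus 7, the animal with most OTX2. Their part in the thalamic level was not tested.

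In the ventral midbrain OTX2 was higher in the ventral tegmental area than in the substantia nigra (7.83, 11.1 and 13.6 CPM) in all 8 animals. The ranges overlapped, since Rhesus 7 (13.5 CPM) and Rhesus 11 (12.7 CPM) had low tegmental levels. The substantia nigra was lower by 1.57 ± 0.43 on the log2 scale (adjusted p = 0.00255), and by 1.42 ± 0.43 without the 4 libraries (adjusted p = 0.00818). The summed level of 7 dopamine neuron markers went the other way, with 4923 to 9392 CPM in the substantia nigra and 229 to 1127 CPM in the ventral tegmental area, and SLC6A3, the dopamine transporter gene, was at 277 to 880 CPM in the former and 4.44 to 59.4 CPM in the latter. The part of the cell makeup of these dissections in the OTX2 difference was not tested.

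The cerebellum held a steep step between its parts, where OTX2 was the only member called of 5 tested. It was at 1.01, 1.59 and 5.62 CPM in the cerebellar cortex and at 24.6, 46.2 and 58.1 CPM in the vermis. Every vermis library lay above every cerebellar cortex library, and the vermis was higher by 4.40 ± 0.27 on the log2 scale, or 21.1-fold (edgeR, adjusted p = 3.19e-05). This contrast called 32 of 14250 genes (0.225%). IRX1, IRX2, IRX3 and IRX5 were not called there (adjusted p of 0.309 to 0.641), and GABRA6, the granule cell receptor subunit gene, overlapped between the parts, with 698 to 1218 CPM in the cortex and 811 to 1204 CPM in the vermis.

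OTX2 was low in the hindbrain outside the vermis. The pons held 1.15, 2.88 and 9.45 CPM, with Rhesus 4 far above the others, and the medulla 0, 0.952 and 1.97 CPM. All 8 animals were higher in the pons, and the call (1.75 ± 0.57, adjusted p = 0.00803) was lost without Rhesus 4 (1.24, adjusted p = 0.0921) but not without the 4 libraries (2.02, adjusted p = 0.00382). The ventral midbrain exceeded the pons and medulla by 3.26 ± 0.35 (adjusted p = 1.26e-13) and the cerebellum exceeded them by 3.55 ± 0.38 (adjusted p = 1.07e-14), without overlap between animals' means in either contrast. These were 3.32 and 3.67 without the 4 libraries. The cerebellar value joins both parts, and the cerebellar cortex by itself (2.31 ± 1.64 CPM) lay between the means of the medulla (1.05 CPM) and the pons (3.71 CPM).

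In the corpus callosum, CA3 and amygdala the animals with the highest OTX2 also had the highest summed choroid plexus markers. In the corpus callosum Rhesus 10 had 21.9 CPM against 1.93 to 7.49 CPM in the others, and its 9 choroid plexus markers with a row (of 10 listed) summed to 2797 CPM against 270 to 982 CPM. In CA3 Rhesus 8 had 9.26 CPM against 0.314 to 1.90 CPM, with a summed marker level of 1030 CPM against 49.1 to 286 CPM. In the amygdala Rhesus 10 (2.74 CPM) and Rhesus 8 (2.34 CPM) led, with sums of 405 and 357 CPM against 40.2 to 84.8 CPM.

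None of the 9 choroid plexus markers was at 0 in all animals of these tissues. TTR made up most of the sums, with 2358 CPM in the corpus callosum of Rhesus 10 and 897 CPM in the CA3 of Rhesus 8. The part of choroid plexus carried along with the tissue was not tested.

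Of 3 members tested over the hippocampal sub-regions, OTX2 (adjusted p = 0.0240) and IRX3 differed (background 32.7% of 14796 genes), and the same 2 were called between CA1 and the dentate gyrus (background 3.53%). The part where each was highest, the dentate gyrus for OTX2 and CA1 for IRX3, helped it pass the low-count filter. These shares of members are thus partly set by the filter. OTX2 was at 0.195, 0.897 and 1.29 CPM in CA1 and at 1.01, 2.25 and 7.30 CPM in the dentate gyrus, with overlapping ranges and 7 of 8 animals lower in CA1 (-1.69 ± 0.47, adjusted p = 0.0107). The dentate libraries with most OTX2, of Rhesus 8 and Rhesus 4 (6.73 CPM), also had the highest summed choroid plexus markers of that sub-region (752 and 1013 CPM, against 114 to 533 CPM in the others), and in CA1 the sums were 43.1 to 109 CPM. Their part in the difference was not tested. The test over all hippocampal sub-regions fell short without the animal as a block (adjusted p = 0.0852) or without Rhesus 4, 6 or 10 (0.0608, 0.0609 and 0.0641), whereas the CA1 contrast was called in each of those alternatives.

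Within the striatum OTX2 ran opposite to OTX1 in its lowest part: it was at 0.122, 0.483 and 0.928 CPM in the putamen, 0.680, 1.34 and 1.58 CPM in the caudate and 0.125, 2.12 and 3.95 CPM in the accumbens. Ranges overlapped throughout, and the putamen was lowest in 7 of 8 animals against the caudate (1.33 ± 0.35, adjusted p = 0.00764) and in 8 of 8 against the accumbens (2.09 ± 0.33, adjusted p = 3.41e-05). The accumbens and caudate differed by 0.76 ± 0.28 (adjusted p = 0.0438), under the fold required.

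In the pituitary OTX2, which is also active in the developing gland, had a median of 1.00 CPM and ranged from no count in Rhesus 11 to 48.4 CPM in Rhesus 8. Rhesus 3 (15.2 CPM) and Rhesus 7 (4.67 CPM) followed. The summed level of 4 markers listed for pituicytes, the glial cells of the posterior lobe (RAX, LHX2, COL25A1 and NKX2-1, of which LHX2 was also listed for the thalamus), fell in the same order over the 4 animals with most OTX2, with 105 CPM in Rhesus 8, 44.3 CPM in Rhesus 3, 24.1 CPM in Rhesus 7, 13.3 CPM in Rhesus 10 and 0.368 to 2.92 CPM in the others. None of the 4 was at 0 in all animals. TTR stayed at 0 to 0.391 CPM in the pituitary. The share of posterior lobe in each dissection was not tested, and OTX2 was not called between the pituitary and hypothalamus (0.14 ± 0.47, adjusted p = 0.787; -0.04 ± 0.41 without the 4 libraries), although 6 of 8 animals were lower in the pituitary. That difference turned on single animals, from 0.60 without Rhesus 11 to -0.996 without Rhesus 8 (adjusted p = 0.0481, not past the fold required).

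**Figure D3:**
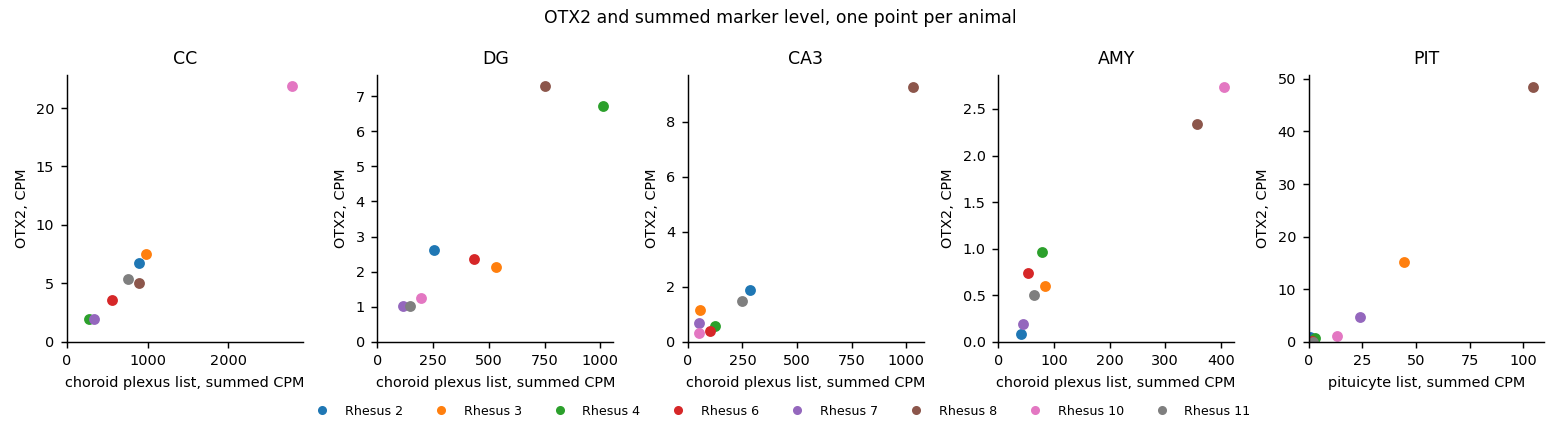
OTX2 level in CPM (vertical axis) against the summed CPM of choroid plexus markers in CC, DG, CA3 and AMY, or of pituicyte markers in PIT (horizontal axis), with 1 point for each of 8 animals. In each panel the animals with most OTX2 are among those with the highest summed markers; in PIT Rhesus 8 stands at 48.4 CPM of OTX2 and 105 CPM of markers.

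GBX2, the hindbrain partner of OTX2 at the isthmus and a regulator of thalamic neuron differentiation, was a thalamic gene in these animals. It was at 5.45, 11.3 and 16.4 CPM in the thalamus and at 0.0774, 0.325 and 1.43 CPM in the hypothalamus. No hypothalamic library reached the lowest thalamic one, and the thalamus was higher by 4.66 ± 0.39 on the log2 scale, or 25.4-fold (adjusted p = 7.44e-19; 4.50 ± 0.39 without the 4 libraries). Against the cortex, where 221 libraries had no count, it was higher by 9.72 ± 0.44 (adjusted p = 8.97e-37).

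The second site of GBX2 was the medulla, with 0.243, 1.89 and 3.77 CPM, against 0, 0.181 and 0.460 CPM in the pons. The ranges overlapped, 7 of 8 animals were higher in the medulla, and the pons was lower by 3.16 ± 0.49 (adjusted p = 9.57e-08; 3.37 without the 4 libraries). After the medulla, which exceeded the corpus callosum (1.46 ± 0.40, adjusted p = 0.000890), no neighbours in the order differed. In the pituitary GBX2 had no count in any of 8 libraries, against 44 counts in the hypothalamus, so it was at least 14.9-fold lower there (adjusted p = 2.24e-07, and 3.38e-08 without the 4 libraries) and at least 377-fold lower than in the thalamus. Between the ventral midbrain and the pons and medulla GBX2 was not called (-0.32 ± 0.39, adjusted p = 0.529; -0.40 ± 0.38 without the 4 libraries). This contrast joins unlike parts. The mean of the ventral tegmental area (0.403 CPM) and that of the substantia nigra (0.535 CPM) lay above the pons (0.189 CPM) and below the medulla (1.79 CPM).

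In the putamen GBX2 lay at 0.390 to 1.05 CPM and in the caudate at 0.0879 to 0.341 CPM, without overlap, but it did not pass the low-count filter there. Under the study's own detection rule (a count above 1 in at least 3 samples) it was tested and the caudate was lower by 1.59 ± 0.42 (edgeR, adjusted p = 0.00880; background 5.04%).

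IRX1, IRX2 and IRX4 were pontine genes. IRX1 was at 28.5, 31.2 and 49.2 CPM in the pons and at 2.91, 6.31 and 9.85 CPM in the medulla. IRX2 was at 35.1, 40.2 and 55.0 CPM in the pons and at 4.63, 6.94 and 11.3 CPM in the medulla. IRX4 was at 5.54, 7.66 and 12.2 CPM in the pons and at 0, 0.434 and 3.53 CPM in the medulla, where Rhesus 2 and Rhesus 6 had none.

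For each of these genes every pontine library lay above every medullary one. The pons was higher by 2.45 ± 0.24 for IRX1 (5.46-fold, adjusted p = 1.02e-15), by 2.64 ± 0.27 for IRX2 (6.25-fold, adjusted p = 9.84e-15) and by 3.24 ± 0.43 for IRX4 (9.43-fold, adjusted p = 2.00e-09), and all were called without the 4 libraries (2.34, 2.58 and 2.95). HOXA4, a hindbrain HOX gene, was at 11.6 to 16.7 CPM in the pons and 7.69 to 19.7 CPM in the medulla, and at no more than 0.166 CPM in the cerebellar parts.

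**Figure D4:**
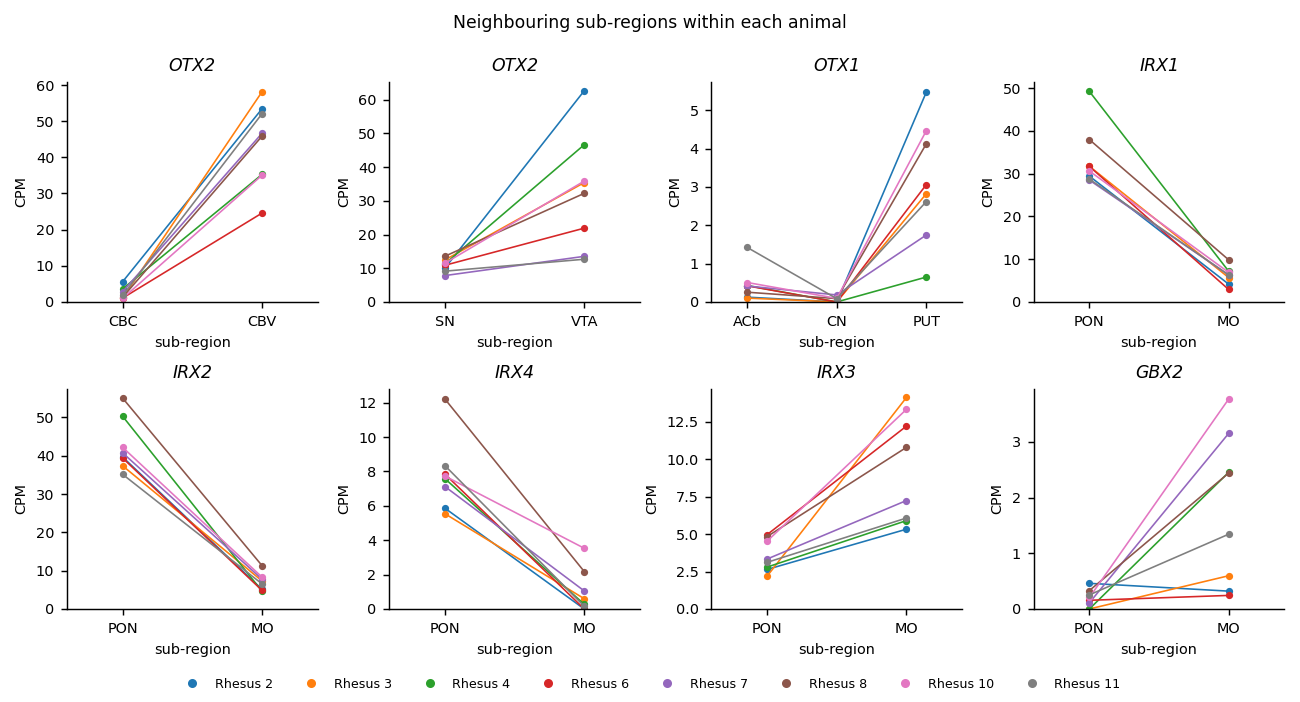
Level in CPM of named members in neighbouring sub-regions, with 1 line for each of 8 animals: OTX2 in CBC and CBV and in SN and VTA, OTX1 in ACb, CN and PUT, and IRX1, IRX2, IRX4, IRX3 and GBX2 in PON and MO. OTX2 rises from CBC to CBV in every animal, and IRX1, IRX2 and IRX4 are higher, and IRX3 lower, in PON than in MO in every animal.

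IRX3, IRX5 and GBX2 ran the opposite way between these hindbrain levels. IRX3 was at 2.20, 3.23 and 4.97 CPM in the pons and at 5.33, 9.03 and 14.1 CPM in the medulla, with no overlap (-1.40 ± 0.28, adjusted p = 1.61e-05). IRX5 was at 1.81, 2.28 and 3.56 CPM in the pons and at 3.31, 5.82 and 6.67 CPM in the medulla, where all 8 animals were higher although the ranges overlapped (-1.10 ± 0.28, adjusted p = 0.000699). Without the 4 libraries the differences were -1.32 for IRX3 and -1.09 for IRX5, and both were called. The members called between pons and medulla were thus 4 higher in the pons (IRX1, IRX2, IRX4 and OTX2; background 3.45%) and 3 lower (8.2%). For IRX4 and GBX2 these shares have the limit from the low-count filter given above.

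Outside the pons IRX1 and IRX2 declined gradually over several regions. IRX1 did not differ between neighbours from the medulla (6.17 ± 2.07 CPM) through the substantia nigra, ventral tegmental area, globus pallidus, cerebellum and thalamus to the hypothalamus (2.66 ± 1.41 CPM), and then stepped down to the pituitary (adjusted p = 0.00103). The fall from the medulla to the hypothalamus was spread over these groups, and its ends are not compared here. IRX2 stepped down between the substantia nigra (5.65 ± 1.88 CPM) and globus pallidus (3.60 ± 0.903 CPM; 0.71 ± 0.28, adjusted p = 0.0267) and between the hypothalamus (2.19 ± 1.53 CPM) and corpus callosum (1.85 ± 0.36, adjusted p = 3.49e-06). Against the mean of the pons and medulla, the ventral midbrain was lower by 1.56 ± 0.17 for IRX1 and by 1.55 ± 0.19 for IRX2, and the cerebellum by 2.18 ± 0.22 and 2.37 ± 0.25, with all 8 animals in that direction (adjusted p of at most 1.25e-11). Without the 4 libraries the midbrain differences were -1.64 and -1.56 and the cerebellar ones -2.26 and -2.43. The medulla by itself did not differ from the substantia nigra for IRX1 (edgeR, adjusted p = 0.689) or from the ventral tegmental area for IRX2 (adjusted p = 0.651).

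In the pituitary IRX1 was at 0.416, 1.33 and 1.91 CPM against 0.593, 2.63 and 4.54 CPM in the hypothalamus, with 7 of 8 animals lower. The log2 difference of -0.98 ± 0.28 was just under the fold required and passed it in 8 of 13 alternatives, reaching -1.17 without the 4 libraries. IRX2 was not lower there (0.29 ± 0.30, adjusted p = 0.378; 0.12 ± 0.30 without the 4 libraries), although IRX1 and IRX2 had the closest profiles of any pair of members: over 51 sub-regions that share the same animals, Pearson's r of the mean log2(CPM + 1) was 0.990, and 0.984 without the pons.

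IRX4 was almost confined to the pons. It had counts in 75 of 408 libraries and exceeded 1 CPM in 13. Besides the pons and medulla it appeared in the ventral tegmental area (0, 0.642 and 1.87 CPM), where 7 of 8 animals were higher than in the substantia nigra (0, 0 and 0.543 CPM). The substantia nigra was lower by 3.17 ± 0.73 on the log2 scale (68 against 7 counts, adjusted p = 0.000404; 3.31 ± 0.72 without the 4 libraries), and IRX4 and OTX2 were the members called in this contrast. Rhesus 4 alone supplied the highest level of both regions, and without each animal in turn the contrast was still called (adjusted p of at most 0.0288 over 13 alternatives), with the log2 difference running from -2.75 without Rhesus 7 to -4.37 without Rhesus 4.

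The cerebellum held 3 counts of IRX4 in 16 libraries against 624 in the 8 pontine ones, a ratio of 516 (95% counting interval 176 to 2510; counting error only). The amygdala, corpus callosum, globus pallidus and hippocampus had no count at all.

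IRX3 and IRX5 shared a distribution over the ventral midbrain, medulla, diencephalon, globus pallidus and cerebellum, and were also present in the pons (means of 3.56 and 2.54 CPM). IRX3 was at 10.7, 15.8 and 26.4 CPM in the substantia nigra, 3.49, 13.6 and 19.5 CPM in the ventral tegmental area, and then declined through the medulla, globus pallidus, hypothalamus and thalamus without a step between neighbours. No single group led for IRX5, whose ventral tegmental (7.00 ± 2.36 CPM), nigral (6.57 ± 1.79 CPM), medullary (5.41 ± 1.18 CPM), thalamic (4.45 ± 1.12 CPM) and cerebellar (3.48 ± 0.717 CPM) levels did not differ between neighbours. The ventral tegmental area and the cerebellum, at the ends of this run, are not compared here. The ventral midbrain exceeded the mean of the pons and medulla by 1.38 ± 0.19 for IRX3 (adjusted p = 1.15e-09) and by 0.85 ± 0.19 for IRX5 (adjusted p = 0.000126), in all 8 animals for both, and the second fell short of the fold required. Leaving out the 4 libraries gave 1.41 and 0.86. The medulla by itself did not differ from the ventral tegmental area for IRX3 (edgeR, adjusted p = 0.200) or from the substantia nigra for IRX5 (adjusted p = 0.479).

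Across the thalamus and hypothalamus IRX5 was at 3.25, 4.38 and 6.57 CPM in the former and 0.198, 2.13 and 3.49 CPM in the latter, where the lowest library was that of Rhesus 6. The ranges overlapped, and 7 of 8 animals were higher in the thalamus (1.17 ± 0.28, adjusted p = 0.000338). The call was lost by fold without Rhesus 6 (0.98, adjusted p = 0.0038) and kept narrowly without the 4 libraries (1.00, adjusted p = 0.00121). IRX3 was not called (-0.30 ± 0.26, adjusted p = 0.369; -0.43 ± 0.25 without the 4 libraries), with 7 of 8 animals lower in the thalamus. The pituitary was lower than the hypothalamus for both genes, by 2.14 ± 0.29 for IRX3 (adjusted p = 9.73e-11) and by 3.08 ± 0.40 for IRX5 (adjusted p = 3.09e-11), and also for OTX1, with 3 counts against 299 (ratio 101, 95% counting interval 34.3 to 493). Without the 4 libraries the pituitary was lower by 2.32 for IRX3, by 3.28 for IRX5 and by 6.53 for OTX1 on the log2 scale.

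IRX3 was the IRX gene with the widest reach into the telencephalon. The accumbens held 1.12, 1.54 and 3.11 CPM and the putamen 0, 0 and 0.835 CPM, without overlap (3.04 ± 0.64, adjusted p = 0.000621), while the caudate lay between (0, 0.667 and 1.88 CPM) and was called against neither. It was called above the putamen by DESeq2 and without Rhesus 6 or 7, and below the accumbens without Rhesus 2 or 3. Without Rhesus 6 the caudate exceeded the putamen by 2.66 ± 0.84, in place of 1.76 ± 0.72, and the accumbens exceeded it by 3.90 ± 0.74. In the hippocampus CA1 held 0.536, 2.40 and 4.30 CPM and the dentate gyrus 0.111, 0.338 and 1.15 CPM, with all 8 animals higher in CA1 (2.16 ± 0.51, adjusted p = 0.00389).

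In the cortex IRX3 had counts in all but 57 libraries, at a mean of 0.278 ± 0.164 CPM. Both members tested over the lobes, IRX3 and OTX1, differed (background 61.5% of 17478 genes). The limbic cortex was highest (0.150, 0.478 and 0.908 CPM for the lowest, median and highest animal) and the frontal cortex lowest (0, 0.103 and 0.274 CPM), with overlap. IRX3 was called lower in the frontal lobe than the mean of the others (-1.43 ± 0.18, adjusted p = 4.80e-08; 1 of 2 members, background 1.75%) and higher in the limbic lobe (1.08 ± 0.16, adjusted p = 7.54e-06; 1 of 2, background 0.475%). The limbic call was lost without Rhesus 4, by fold (0.99), and without the animal as a block (adjusted p = 0.166). The hippocampal gyrus (HG, 0.688 CPM) led the sub-regions and the superior precentral gyrus (SPrCG, 0.0435 CPM) came last.

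**Figure D5:**
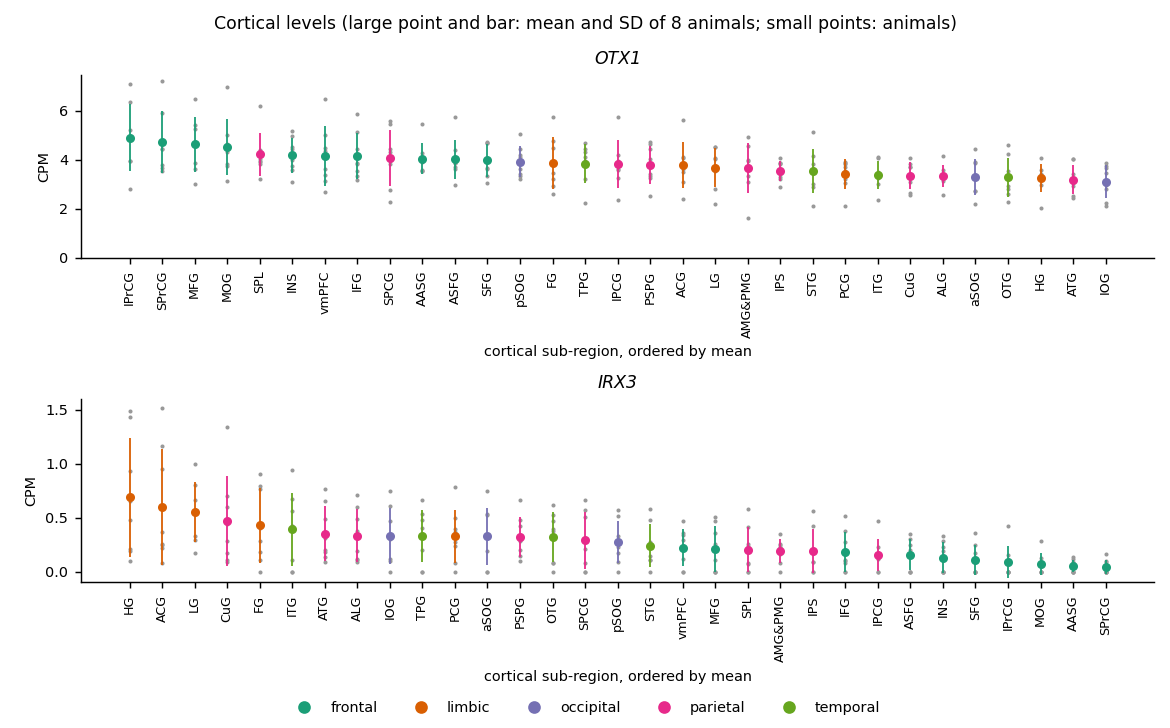
OTX1 and IRX3 in CPM (vertical axes) over 31 cortical sub-regions ordered by mean (horizontal axes), coloured by lobe; large points and bars are the mean and SD of 8 animals and small points the animals. OTX1 runs only from 3.11 to 4.91 CPM, with frontal sub-regions towards the high end, and IRX3 from 0.0435 to 0.688 CPM, with frontal sub-regions towards the low end.

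The thalamus exceeded the cortex for OTX2, GBX2 and 4 IRX genes, in 8 of 8 animals each and without overlap. For the IRX genes the differences were 9.51 ± 0.39 (IRX5), 8.26 ± 0.38 (IRX2), 7.61 ± 0.32 (IRX1) and 4.68 ± 0.29 (IRX3), with adjusted p of at most 2.95e-28. OTX1 (0.20 ± 0.25, adjusted p = 0.520) and IRX4 (0.04 ± 0.94, adjusted p = 0.973) were not called.

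Age stage and sex were compared within each region group, 4 animals against 4, with a call at an adjusted p under 0.1 and a log2 fold change beyond 1 in size. By edgeR, 0 of 73 member tests were called for age (2 at an unadjusted p under 0.05; background 0.0164% of 243260 tests), and 1 by DESeq2. For sex 0 of 73 were called (3 at an unadjusted p under 0.05; background 0.105%), and 1 by DESeq2.

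The age result with the lowest unadjusted p was GBX2 in the medulla, at 2.44 to 3.77 CPM in the 4 young animals and 0.243 to 1.34 CPM in the 4 mid-aged ones. These did not overlap, and mid-aged animals were lower by 2.25 ± 0.53 on the log2 scale (edgeR, adjusted p = 0.443; DESeq2, 0.0169; 0.0169 to 0.787 over all alternatives). The medulla of Rhesus 6, which stood apart, is among the mid-aged libraries, and without that animal the difference was 1.95 (adjusted p = 0.326).

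The sex result with the lowest unadjusted p was OTX2 in the pituitary, at 0.828, 9.92 and 48.4 CPM (lowest, median and highest) in 4 males and 0, 0.408 and 1.17 CPM in 4 females. The groups overlapped, and females were lower by 5.21 ± 1.12 (edgeR, adjusted p = 0.218; DESeq2, 0.00202; 0.00202 to 0.451 over all alternatives). The pituicyte markers above moved with it, reaching 0.368 to 105 CPM in males and 1.31 to 13.3 CPM in females, and their part was not tested.

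As a description, the 3 genes whose mean log2(CPM + 1) over the 51 sub-regions was most like that of each member were found among 13356 genes. For GBX2 they were the homeobox gene SHOX2 (Pearson's r 0.922), IL12B (0.905) and NDC80 (0.904), each highest in the thalamus. For IRX4 they were POU4F2 (0.978), a POU-domain factor, OPRPN (0.975) and PASD1 (0.962), each highest in the pons. IRX1 and IRX2 shared ADAP2 (0.897 and 0.877) and ARHGAP12 (0.885 and 0.891), and the third genes were DAO (0.862), which encodes D-amino acid oxidase, and LEMD1 (0.861).

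IRX5 was most like DAO (0.939), XIRP2 (0.938) and SUSD2 (0.929), and IRX3 like the potassium channel gene KCNJ16 (0.911), XIRP2 (0.905) and RNF135 (0.892). OTX2 was most like RNF135 (0.846), SYT9 (0.821) and KCNJ16 (0.813). OTX1 had the weakest likenesses, with RRP1 (0.789), CXCL14 (0.776) and GMIP (0.775). Between members, IRX3 and IRX5 had r = 0.920, and IRX1 and IRX3 0.847, or 0.972 without the pons. The sub-regions share animals, and these values carry no test.

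Genes of the isthmic organizer were read from a list of 14, of which 12 had a row and 11 were tested across region groups. In the ventral midbrain 5 were higher and 1 lower than in the pons and medulla (background 6.86%), with median log2 fold change 0.45 (all genes -0.0037), and the largest changes were in LMX1B (5.53 ± 0.59), PAX5 (4.10 ± 0.45) and LMX1A (4.01 ± 0.56). Between the substantia nigra and ventral tegmental area LMX1B (2.67 ± 0.40), PAX8 (1.47 ± 0.46) and LMX1A (1.34 ± 0.53), known for dopamine neuron and isthmic development, were higher in the former, and none was lower (background 5.91%). LMX1A lay close to the threshold (edgeR, adjusted p = 0.0451). The tegmental libraries of Rhesus 2 and Rhesus 11, with the lowest TH, were included, and no value without them is given for this list. In the pons 2 were higher and 4 lower than in the medulla (11.7%), led by LMX1B (-8.80 ± 1.15), PAX8 (-7.78 ± 0.84) and PAX2 (-6.13 ± 0.66).

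In the cerebellum 3 genes of this list were higher and 1 lower than in the pons and medulla, or 4 of 11 where 34% of all genes were called, with CNPY1 (4.90 ± 0.19) and PAX2 (2.71 ± 0.45) rising and WNT1 (-5.77 ± 0.63) falling. In the thalamus 1 was higher and 5 lower than in the hypothalamus (background 14.2%), and 2 were higher and 4 lower than in the cortex (19.7%). In the pituitary 3 were higher and 2 lower than in the hypothalamus (5 of 11, background 37.7%), so these cerebellar and pituitary counts lay near the background. None of 6 tested was called between vermis and cerebellar cortex.

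A second list held 12 homeobox relatives of the members, of which 8 had a row and were tested. In the cerebellum 6 were lower than in the pons and medulla and none higher (background 34%, median log2 fold change -1.88, all genes -0.025), led by GBX1, the paralogue of GBX2 (-4.71 ± 1.07), GSC2 (-3.73 ± 1.05) and MKX (-2.56 ± 0.23). In the pons MKX was higher than in the medulla (1.29 ± 0.23; background 3.45%) and 3 were lower (8.2%), among them GBX1 (-3.62 ± 0.74) and MEIS2 (-1.37 ± 0.19). The ventral midbrain differed from the pons and medulla (background 6.86%) in 2 higher, IRX6 (1.79 ± 0.25), the neighbour of IRX5, and GSC2 (1.28 ± 0.51), and 2 lower, one of them GBX1 (-2.66 ± 0.82). DMBX1 (-2.21 ± 0.47) and MEIS2 (-1.27 ± 0.20) were lower in the substantia nigra than in the ventral tegmental area (background 5.91%).

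In the thalamus DMBX1 was higher than in the hypothalamus (3.66 ± 0.45) and in the cortex (3.23 ± 0.34), and 4 relatives were lower in each contrast, MKX among them (-3.58 ± 0.30 and -4.99 ± 0.30; background 14.2% and 19.7%). In the pituitary 2 were higher and 3 lower than in the hypothalamus, with IRX6 lower by 6.81 ± 0.68 (background 37.7%).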

How the data were processed

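Ribosomal RNA-depleted total RNA libraries of 51 sub-regions of 8 animals were used, and those of the remaining midbrain and of open chromatin were not analysed here. The authors trimmed libraries of poor read quality with Trim Galore 0.4.4, aligned reads with HISAT2 2.0.5 and counted reads per gene with HTSeq 0.6.1 against Mmul 8.0.1, Ensembl 91, and the values are read counts as deposited, 7784678 to 31083490 per library. Whether counting used strand is not given in the sources used here. Symbols were matched by gene ID to a reference table for 17572 of 30807 genes and to the study's supplement for 461 more, OTX1 among them. No sequence of these genes was used here, and no genome coordinates are given, since no annotation of the files' build was used.

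Counts were summed over the sub-regions of a region group within each animal and tested with edgeR 4.0.16 (quasi-likelihood F test, TMM, filterByExpr, Benjamini-Hochberg adjustment over all genes; R 4.3.3) with the animal as a block. The block rests on the labels, since same-numbered libraries came from the same animal: the median correlation of their deviations from the group means was 0.425, against -0.0511 between animals. All 16 region groups shared 1 fit, and sub-regions and lobes were fitted within the hippocampus, striatum, cerebellum and cortex. Age stage and sex were fitted per region group, each with the other as covariate. Levels are CPM on TMM library sizes, averaged over the sub-regions of a group. Alternatives were DESeq2 1.42.0, its size factors, the study's detection rule in place of filterByExpr, no block, each animal left out in turn and, chosen after seeing the data, 4 libraries left out. In simulated counts 38 of 100 genes changed 2-fold and 100 of 100 changed 4-fold reached an adjusted p under 0.05 between the thalamus and hypothalamus. The fold required for a call in the results was not applied there. The simulation had no animal effect and changed no low-count gene, so it does not give the recovery of members near the floor.

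The members and gene lists were chosen with earlier results of these data known. All members are named. Of each list at most the 3 genes with the largest called change per comparison are named, and of the genes with at least 1 CPM in their highest group the 3 most alike to each member by Pearson correlation. Floors are 3 counts over a group, and intervals and floors cover counting error only.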

Additional observations from a re-analysis of the deposited data

Results flagged for a closer look

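Among 77 sets of 8 animals (a member in a sub-region), 11 had a highest animal far from the others by Dixon's criterion, which chance alone meets in about 1 of 20 sets. Of these 11 values, 7 came from 4 libraries of Rhesus 4, a young female, so they are not independent. In the pons of Rhesus 4, OTX2 was at 9.45 CPM (next animal 4.37) and IRX1 at 49.2 CPM (next 38). In the globus pallidus, OTX2 was at 12.9 CPM (next 8.50) and IRX3 at 18.8 CPM (next 11.0). In the cerebellar cortex, IRX1 was at 8.38 CPM (next 4.58) and IRX3 at 12.3 CPM (next 6.48), and in the substantia nigra IRX1 was at 12.1 CPM (next 6.72).

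The remaining 4 were OTX2 in the corpus callosum of Rhesus 10 (21.9 CPM, next 7.49), OTX2 in the CA3 of Rhesus 8 (9.26 CPM, next 1.90), OTX2 in the pituitary of Rhesus 8 (48.4 CPM, next 15.2) and IRX4 in the pons of Rhesus 8 (12.2 CPM, next 8.34). In the first 3 of these, markers of choroid plexus or pituicytes were also highest in that animal, and their part was not tested.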

How the results depend on the processing

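All 59 calls of members over these comparisons were shared by DESeq2, by DESeq2's size factors, by the detection rule and by leaving out Rhesus 2, 3, 7 or 8. Without the replicate block 57 were shared, and 1 of 3 members was called over the hippocampal sub-regions in place of 2. The detection rule tested more members and called 4 over the hippocampal sub-regions, 5 over the striatal ones and 4 over the cortical ones (in place of 2, 3 and 1). Under it 24.3%, 44.9% and 62.1% of all genes were called, in the same order. The members tested and not called were OTX1 over the hippocampal, IRX2 and IRX5 over the striatal, and IRX4 over the cortical sub-regions. With each animal left out in turn, 1 to 2 were called over the hippocampal and 1 to 2 over the cortical sub-regions, and 0 to 1 for sex, the exception being OTX2 in the pituitary without Rhesus 7 (-5.86, adjusted p = 0.00308). DESeq2 called 1 for age (GBX2 in the medulla) and 1 for sex (OTX2 in the pituitary). Without the 4 libraries that stood apart, all 40 calls of the region-group comparisons were shared and IRX1 between pituitary and hypothalamus was added. Calls lost with an animal left out are given beside the results, and the cause was not tested, except that OTX1 fell under the low-count filter in the striatum without Rhesus 11. No result changed direction past its threshold. By Spearman correlation 0 of the 3 genes most like each member were kept, for all 8 members, and with a pseudocount of 0.1 in place of 1, 1 of 3 was kept for OTX2, GBX2, IRX1 and IRX2, so those names depend on the measure. Depth limits GBX2, IRX4 and IRX5 outside their main tissues, where many libraries held 0 to 3 counts.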
